A study of Mus musculus with 22 samples.

Results

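The Bach2 locus is described here as every called peak that overlaps the Bach2 gene or the 10 kb on either side of it, in mouse regulatory T cells (Treg cells). Bach2 lies on the plus strand at chr4:32238413-32586109 (mm10) and is 347.7 kb long, so the window is chr4:32228413-32596109. It holds 473 peaks of the 362285 in all 18 deposited peak lists. The locus was selected on its H3K27ac values (the covered length and the regions found in WT only), so differences in that mark between the genotypes are given as a description, with no test. Of the peaks just inside the window, the outermost lie 8.78 kb below the gene and 2.09 kb above it. The nearest peaks left outside lie 15.73 kb below and 28.32 kb above it.

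BACH2 is a transcriptional repressor of the BTB and basic leucine zipper family that pairs with small MAF proteins and competes with AP-1 factors for the same DNA sites. In T cells it holds back effector genes and is needed for the formation and upkeep of Treg cells, mostly those in a resting state. Acetylation of histone H3 at lysine 27 (H3K27ac) marks active enhancers and promoters and is laid down by acetyltransferases such as p300. Foxp3 is the factor that defines Treg cells, NFAT1 moves to the nucleus on calcium signalling, and Ikaros is a zinc finger factor of lymphocytes that binds corepressor complexes.

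The study used chromatin immunoprecipitation with sequencing (ChIP-seq) on purified primary Treg cells from spleen and lymph nodes that had been stimulated for 1 h with a commercial cocktail. Wild-type (WT) cells were compared with cells of the genotype labelled IkE5-deletion (IkE5 from here on). That name is not expanded in the labels, although the series title names Ikzf1, the gene of Ikaros. H3K27ac, Foxp3, p300 and NFAT1 were each mapped in 2 WT and 2 IkE5 libraries, and Ikaros in 2 WT libraries. How the deletion is driven, in which cells, and the age and strain of the mice are not given in the sources used here. Cells were fixed with 1% formaldehyde for 5 min (histone mark) or 30 min (factors). Nothing in the labels says that libraries came from separate animals, and a p-value here therefore speaks of library-to-library spread, part or all of which could be technical.

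The lists hold positions only, with no reads or scores, so the depth behind a peak is unknown and a missing peak is one that was not called. Lists of 1 target differed in length (NFAT1 from 3435 to 7825 peaks), and the length covered by H3K27ac ran from 54.6 to 79.6 Mb. Values scaled to the mean list of the target are therefore given beside the raw ones. In these lists, fewer cells with a mark and less of the mark in each cell cannot be told apart. The Treg identity of the cells was visible in H3K27ac at all 5 Treg markers, which summed to 256.2 and 179.7 kb in WT and to 267.8 and 223.2 kb in IkE5. Because BACH2 is also abundant in B cells, B cell markers were read as well: their 10 genes summed to 32.8 and 26.3 kb in WT and 26.5 and 24.2 kb in IkE5, and Ms4a1, which encodes the B cell surface protein CD20, was at 0 in every library. Of the B cell genes with the mark, Cd79a (15.2 and 15.2 kb in WT, 11.4 and 10.6 kb in IkE5), Ebf1 (2.2 and 1.8 against 0.6 and 0.5 kb), Pax5 (1.1 and 1.1 against 0.8 and 0.7 kb) and Cr2 (3.0 and 2.5 against 2.3 and 2.2 kb) were lower in both IkE5 libraries. Cd79b (1.7 and 1.9 against 2.4 and 3.2 kb) and Blk (3.0 and 1.7 against 3.1 and 3.2 kb) were higher in both, and their part in the Bach2 values was not tested. Myeloid markers (8 genes) summed to 17.7 and 11.4 kb against 12.6 and 11.8 kb, with Lyz2, Csf1r and Adgre1 at 0. Markers of CD8 T and natural killer cells (7 genes) summed to 11.4 and 5.3 kb against 10.6 and 7.5 kb, with Ncr1 at 0. Cd8a, which defines CD8 T cells, had 1.5 and 1.3 kb in WT and no peak in IkE5, and Cd8b1 had 2.1 and 1.5 kb against 0.9 and 1.3 kb. The low WT library 2 had no peak at Gzmb or Eomes, where IkE5 had 5.1 and 1.8 kb and 3.2 and 1.5 kb and WT library 1 had 2.6 and 2.1 kb. The part of these genes in the Bach2 values was not tested.

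RefSeq (GRCm38.p6, the assembly of mm10) places a transcript start inside the gene as well, 179.0 kb from its beginning. The 250 bases before that start, chr4:32417185-32417434 on the plus strand, are shown because this is the annotated start of Bach2 that had no peak in any of the 18 lists. Capitals mark matches, on either strand, to the Ikaros core GGGAA and to the NFAT core GGAAA.
Bach2 internal start: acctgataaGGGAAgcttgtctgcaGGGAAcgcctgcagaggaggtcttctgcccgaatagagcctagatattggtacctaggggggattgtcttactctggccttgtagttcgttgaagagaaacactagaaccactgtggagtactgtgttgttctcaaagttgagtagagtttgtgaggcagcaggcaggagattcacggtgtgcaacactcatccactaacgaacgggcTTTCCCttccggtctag
GGGAA was found 3 times, and 56.2% of 32851 RefSeq promoters of the same length hold it at least once. GGAAA was found 1 time, on the minus strand and overlapping a GGGAA match, and 55.6% of promoters hold it. The forkhead motif TGTTTAC, the kind of site that Foxp3 can read, was not found, and 3.17% of promoters hold it. The nearest H3K27ac peak ended 2.54 kb before this start, in a region at chr4:32413564-32414891 that was acetylated in both WT libraries and in neither IkE5 library.

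H3K27ac covered less of Bach2 in both IkE5 libraries than in either WT library. In WT library 1 it covered 177.8 kb (48.4% of the window) and in WT library 2 it covered 150.6 kb (40.9%). In IkE5 library 1 the covered length was 74.2 kb (20.2%) and in IkE5 library 2 it was 110.4 kb (30.0%). The groups did not overlap: the WT mean was 164 ± 19.3 kb and that of IkE5 92.3 ± 25.6 kb (SD over 2 libraries), a ratio of 0.562. Both IkE5 libraries likewise covered less than both WT libraries at 2830 of 14790 genes with any H3K27ac peak (19.1%). WT library 1, which covered most at Bach2, also covered most in all (79.6 Mb). IkE5 library 1, which covered least at Bach2, covered 72.9 Mb in all, more than WT library 2 with 54.6 Mb. The part of depth in these values was not tested. After scaling to list length the libraries stood at 150.3 and 185.6 kb in WT and 68.5 and 119.7 kb in IkE5. As a share of all acetylated bases of the library, Bach2 held 0.223% and 0.276% in WT and 0.102% and 0.178% in IkE5.

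On the log2 scale of scaled covered length + 1000 bp, the limma fit over all genes gave Bach2 a difference of -0.88 ± 0.26 (SE, IkE5 minus WT), and 251 of 12714 genes had a lower value. Over all genes the median difference was -0.02. In that fit 49 genes (0.385% of those tested) were called lower in IkE5 and 94 (0.739%) higher at a Benjamini-Hochberg adjusted p of 0.05; as Bach2 was selected on this contrast, no call is given for it. The 2 IkE5 libraries differed much from each other at this gene, and the difference was -0.48 without IkE5 library 1 and -1.27 without IkE5 library 2.

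**Figure D1:**
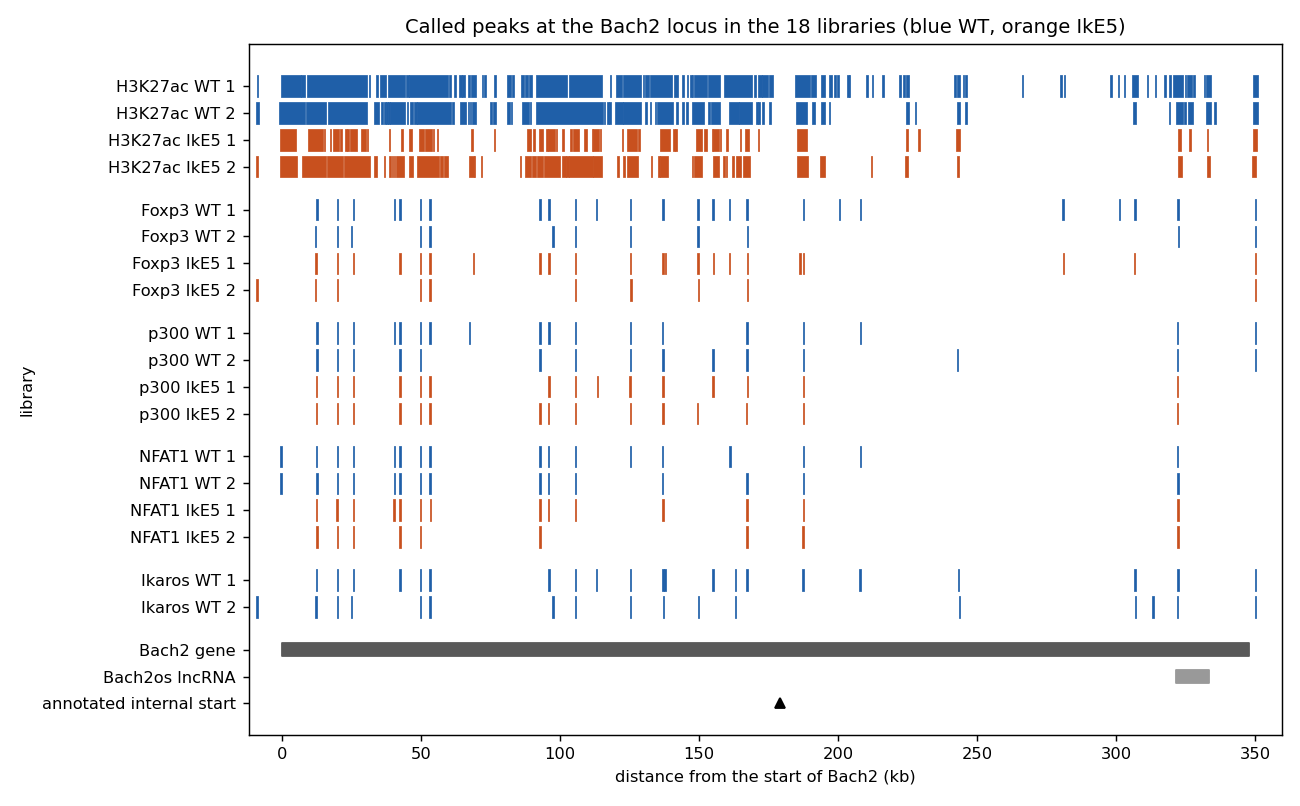
Called peaks of the 18 libraries (rows; blue WT, orange IkE5) along the Bach2 locus, by distance in kb from the start of the gene, with the gene, the Bach2os lncRNA and the annotated internal start below. H3K27ac is dense over the first 200 kb in WT (177.8 and 150.6 kb in the whole window) and less so in IkE5 (74.2 and 110.4 kb), while factor peaks recur at the same places in most libraries.

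Along the gene the mark was densest at its beginning in all 4 libraries, and the ratio of IkE5 to WT was lower farther along the gene. In the first 50 kb H3K27ac covered 45.3 and 43.6 kb in WT and 23.8 and 38.5 kb in IkE5, a ratio of means of 0.702. From 150 to 200 kb it covered 33.9 and 22.3 kb in WT and 12.1 and 14.6 kb in IkE5, a ratio of 0.474. Between these segments the ratio was 0.588 (50 to 100 kb) and 0.579 (100 to 150 kb), with both IkE5 libraries below both WT libraries in each.

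The last part of the gene was acetylated little, and mostly in WT. From 200 to 250 kb the ratio was 0.404 on a WT mean of 5.82 kb, and from 250 to 300 kb WT library 1 alone had 2.3 kb. From 300 kb to the end of the gene, the stretch with the antisense long noncoding RNA gene Bach2os (chr4:32559680-32571662), H3K27ac covered 14.1 and 8.9 kb in WT and 2.0 and 2.2 kb in IkE5, a ratio of 0.179. The 10 kb flanks had ratios of 0.722 below the gene and 0.854 above it, on WT means of 1.4 and 1.85 kb.

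**Figure D2:**
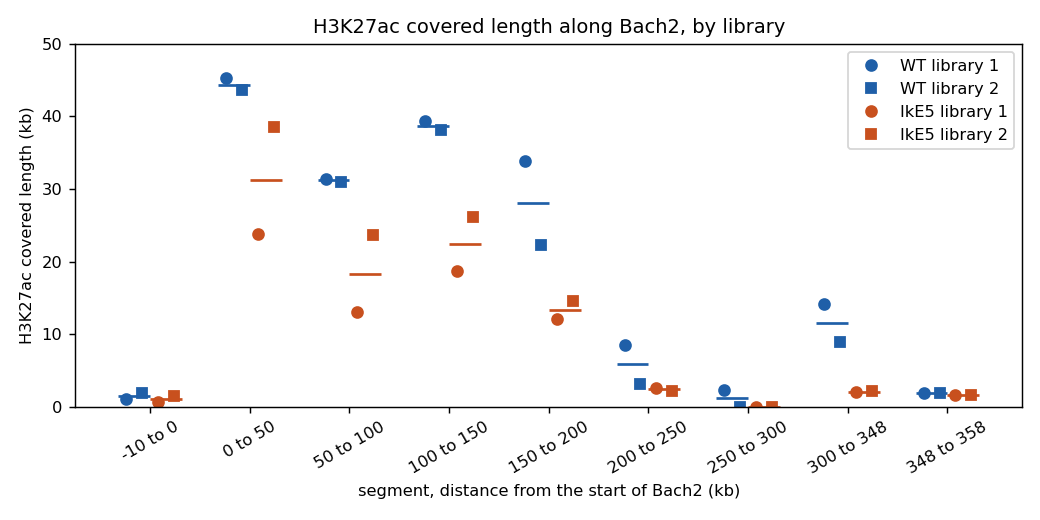
H3K27ac covered length (kb, y axis) in segments of the Bach2 locus (x axis, kb from the gene start) for each library; points are libraries and bars are group means of 2. Both IkE5 libraries lie below both WT libraries in every 50 kb segment of the first 250 kb, from 23.8 and 38.5 against 45.3 and 43.6 kb in the first segment to 2.5 and 2.2 against 8.5 and 3.1 kb in the fifth.

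Both the number of acetylated places and the width of the widest peaks were lower at Bach2 in IkE5. H3K27ac peaks numbered 80 and 63 in the WT libraries and 56 and 49 in those of IkE5. The mean peak was 2.22 and 2.39 kb wide in WT, 1.32 kb in IkE5 library 1 and 2.25 kb in IkE5 library 2, so in the latter the mean width was within the range of WT and the number of peaks was lower. The widest peak was 21.8 and 24 kb in WT and 5.5 and 9.2 kb in IkE5. The 4 libraries together gave 78 H3K27ac regions (peaks joined where they overlap), of which WT libraries had a peak in 67 and 47 and IkE5 libraries in 22 and 25. A peak of all 4 libraries was found in 17 regions. In those 17 the number of separate peaks was 29 and 32 in WT and 51 and 41 in IkE5. Their mean width was 4.64 and 3.92 kb in WT and 1.41 and 2.52 kb in IkE5, and in 16 of the 17 both IkE5 libraries covered less than both WT libraries, as they did in 22.6% of the regions of this kind across the series.

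The widest of these regions, chr4:32237498-32270173, spans 32.7 kb over the start of the gene and its first part. It was covered for 31.1 and 30.6 kb in WT, in 4 and 3 peaks, and for 20.9 and 29.7 kb in IkE5, in 11 and 4 peaks. A 24.1 kb region further in, chr4:32329735-32353799, was covered for 23.1 and 24 kb in WT, in 2 and 1 peaks, and for 13 and 22.2 kb in IkE5, in 11 and 6 peaks. In each of these domains IkE5 library 2 was close to WT, and IkE5 library 1 was not.

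Regions acetylated in both WT libraries and in neither IkE5 library (WT only) numbered 15 of 78 (19.2%), against 4.69% of all H3K27ac regions of the series. The reverse pattern (IkE5 only) was found in 1 region of 78 (1.28%, against 3.9% of all regions). These shares are part of what chose the locus. The other 45 regions were mixed, and 26 of them were in WT library 1 alone, 8 in WT library 2 alone, 1 in IkE5 library 1 alone and 1 in IkE5 library 2 alone.

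The WT only regions were narrow, 533 to 2343 bp, and 11 of the 15 lay in the first 200 kb, between the broad domains. The 5 widest were chr4:32302171-32304513, chr4:32411151-32413261, chr4:32544061-32546119, chr4:32428498-32430425 and chr4:32319172-32320584, with centres at 64.9, 173.8, 306.7, 191.0 and 81.5 kb from the gene start. Of the 15, only the region at 306.7 kb overlapped any WT peak of Foxp3, p300, NFAT1 or Ikaros, and there it was Foxp3 (WT library 1) and Ikaros (both libraries). That is 6.67%, against 31.6% of WT only regions across the series. Of the 17 regions acetylated in all 4 libraries, 14 (82.4%) overlapped a WT factor peak, against 87% across the series. The IkE5 only region, chr4:32328236-32329683, is 1.45 kb wide, lies 90.5 kb from the start between domains that all 4 libraries shared, and overlapped no WT factor peak.

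Counted base by base, 138.3 kb of the locus were acetylated in both WT libraries. Of these bases 62.4 kb (45.2%) were also acetylated in both IkE5 libraries, against 76.2% over all chromosomes. Another 34.8 kb (25.2%, against 11% over all chromosomes) were acetylated in neither IkE5 library, 36.1 kb in IkE5 library 2 alone and 4.9 kb in IkE5 library 1 alone. In the other direction, 1.1 kb of the 65.5 kb acetylated in both IkE5 libraries (1.66%, against 10.6%) were in neither WT library.

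Bases near bound factors kept the mark more often than bases between them. Within 1 kb of a WT peak of Foxp3, p300, NFAT1 or Ikaros, 59.1 kb were acetylated in both WT libraries, of which 70.5% were in a peak of IkE5 library 1 and 86.4% in one of library 2. Of the 79.2 kb farther away, 32.5% and 60% were. In both IkE5 libraries at once the shares were 68.1% near factors and 28.1% away from them. Over all chromosomes the same shares were 81.9% and 62.2%, so a gap of the same direction was present genome-wide.

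**Figure D3:**
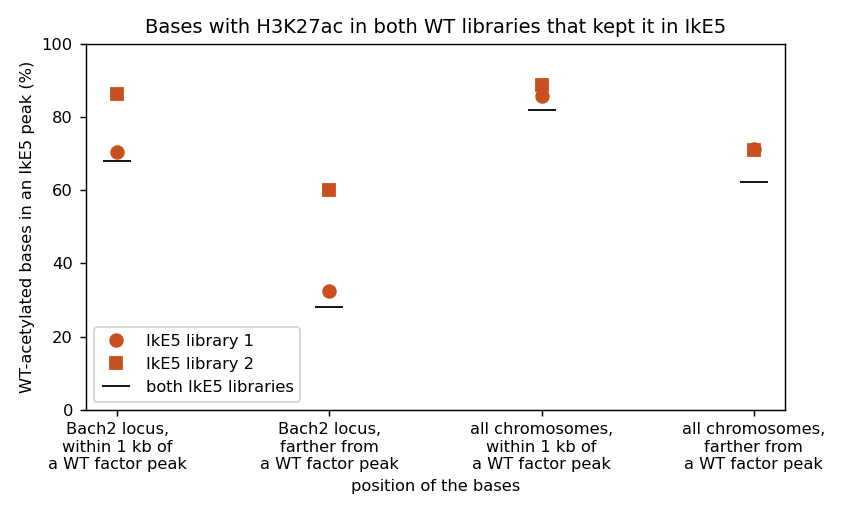
Share of bases acetylated in both WT libraries that lay in an IkE5 H3K27ac peak (y axis, percent), at the Bach2 locus and over all chromosomes, within 1 kb of a WT factor peak or farther from one (x axis); circles and squares are IkE5 libraries 1 and 2 and bars the share in both. At Bach2 68.1% was kept in both libraries near factor peaks and 28.1% away from them, against 81.9% and 62.2% over all chromosomes.

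Among the 280 genes with at least 20 kb acetylated in both WT libraries, 10 kept a smaller share in both IkE5 libraries than the 45.2% of Bach2, and the median gene kept 78.8% (lower quartile 68.9%). Of the 62 such genes that are at least 200 kb long, 2 kept less than Bach2, and their median was 73%. Foxp1, a forkhead factor that keeps T cells quiescent, kept 46.2% of 165 kb, and Lef1, a partner of beta-catenin in naive T cells, kept 29.2% of 48.1 kb. Ikzf2, the gene of the Treg factor Helios, kept 97.2% of 87.6 kb.

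Foxp3 and p300 peak numbers at the locus overlapped between the genotypes with and without scaling, and the direction for NFAT1 depended on it. Foxp3 had 25 and 12 peaks in the WT libraries, and 22 and 10 in those of IkE5. The library numbered 1 was the higher one in both genotypes, and the groups overlapped (means 18.5 ± 9.19 and 16 ± 8.49, SD, n = 2, 2-sided exact permutation p = 0.667). The acetyltransferase p300 had 18 and 15 peaks in the WT libraries, and 15 and 15 in those of IkE5 (means 16.5 ± 2.12 and 15.0 ± 0, n = 2, 2-sided exact permutation p = 1). NFAT1 had 17 and 15 peaks in the WT libraries against 14 and 9, so both IkE5 libraries were lower as deposited (means 16 ± 1.41 and 11.5 ± 3.54, n = 2, 2-sided exact permutation p = 0.333). With 2 libraries against 2 the smallest p this test allows is 0.333, so none of the 3 could reach 0.05, and adjusted over the 3 targets by Benjamini-Hochberg each exact p was 1.

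The direction for NFAT1 turned with the scaling. The IkE5 lists of NFAT1 were shorter everywhere (4908 and 3435 peaks against 7825 and 6850), and at equal list length Bach2 had 12.5 and 12.6 peaks in WT against 16.4 and 15.1 (2-sided exact permutation p = 0.333, n = 2). Per 1000 peaks of the list, NFAT1 peaks at Bach2 numbered 2.17 and 2.19 in WT and 2.85 and 2.62 in IkE5. Scaled Foxp3 peaks were 23.1 and 13.8 in WT and 19.3 and 11 in IkE5, and scaled p300 peaks 16.1 and 17.5 in WT and 13.1 and 17.1 in IkE5, both with overlapping groups as before.

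**Figure D4:**
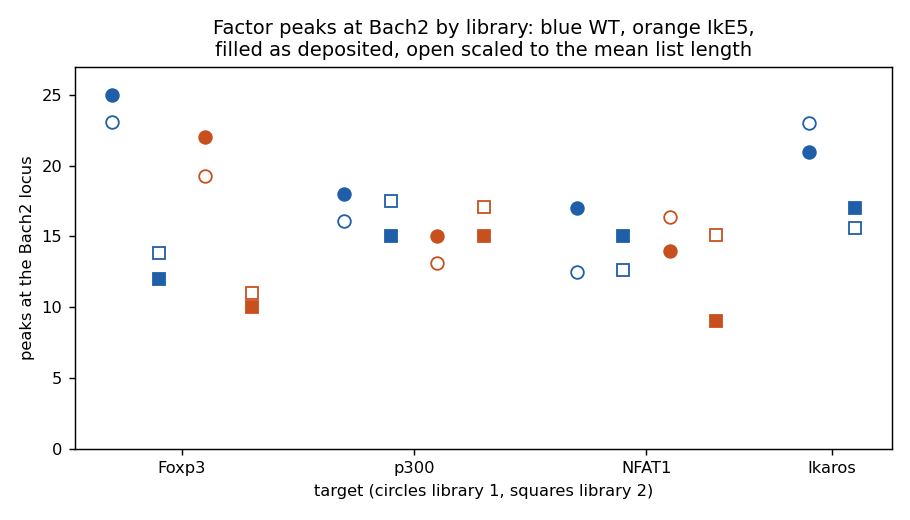
Number of peaks of each factor at the Bach2 locus (y axis) by target (x axis) and library, filled as deposited and open scaled to the mean list length; blue is WT and orange IkE5. NFAT1 is lower in both IkE5 libraries as deposited (14 and 9 against 17 and 15) and higher in both after scaling (16.4 and 15.1 against 12.5 and 12.6).

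Joined over the 14 factor lists, the peaks fell on 36 sites, 25 of them in the first 200 kb of the gene. At 14 sites (38.9%) Foxp3, p300, NFAT1 and Ikaros were all called in at least 1 WT list each, against 15.6% of factor sites across the series. Of 21887 protein-coding genes 2 had more such sites, also when only genes of at least 200 kb were compared, of which there were 633. Of the 14 sites 12 lay in the first 200 kb. The other two lay at 207.9 kb, chr4:32445965-32446735, where a single WT library of each target had a peak and no library had H3K27ac, and at 322.1 kb in Bach2os.

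Foxp3, p300 and NFAT1 were all found again in IkE5 cells at most of these sites. The count, with each called in at least 1 IkE5 list, was 11 of the 14 (78.6%), against 46.5% of such sites across the series. NFAT1 was in no IkE5 list at 2 of the 14 (14.3%, against 50.4%), p300 at 1 (7.14%, against 17%) and Foxp3 at 2 (14.3%, against 7.26%). H3K27ac was present in all 4 libraries at 13 of the 14 (92.9%, against 83.5%).

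At 3 sites all 14 factor lists had a peak and all 4 H3K27ac libraries covered the whole site. They lie 12.3, 19.9 and 49.7 kb from the gene start, at chr4:32250223-32251214, chr4:32257929-32258602 and chr4:32287842-32288470. One more site, at 105.5 kb (chr4:32343576-32344229), had peaks in 13 of the 14, all but NFAT1 in IkE5 library 2. These sites are inside the broad acetylated domains that IkE5 cells kept in part.

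Counted with each factor for itself, most WT sites were found again in IkE5. Foxp3 was called at 27 sites in at least 1 WT list and at 19 of these in at least 1 IkE5 list, with 4 more sites in IkE5 lists alone. For p300 the count was 15 of 20, with 2 sites in IkE5 lists alone. NFAT1 was found again at 14 of its 18 WT sites and at no site in IkE5 alone.

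Each of the 3 factors had 1 region found in both WT libraries and in neither IkE5 library, and none the reverse. For Foxp3 this was 1 of 31 regions (3.23%, against 2.44% of all Foxp3 regions, and IkE5 only 0 against 3.22%). For p300 it was 1 of 22 (4.55%, against 5.63%, and IkE5 only 0 against 6.01%), and for NFAT1 1 of 18 (5.56%, against 19.4%, and IkE5 only 0 against 3.72%). The WT only shares of Foxp3 and p300 are near those of the series, and that of NFAT1 is below it, each resting on 1 region.

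The NFAT1 region lay at chr4:32237841-32238356, centred 0.3 kb before the start of the gene. It was the factor site nearest to that start, it had no peak of Foxp3, p300 or Ikaros in any list, and it was acetylated in all 4 libraries. The Foxp3 region, chr4:32560262-32560879, lay in Bach2os at 322.2 kb, where p300 and NFAT1 were called in all 4 of their lists and Ikaros in both. There H3K27ac covered the 696 bp of the joined site in both WT libraries, and 155 and 285 bp in the IkE5 libraries. The p300 region, chr4:32588105-32588644, lay beyond the end of the gene at 350.0 kb, with Foxp3 in all 4 lists, Ikaros in both, and H3K27ac in all 4 libraries.

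Ikaros, mapped in WT only, had 21 and 17 peaks at Bach2. These made 26 regions with 12 in both libraries. Of 21887 genes 5 had more regions called in both Ikaros libraries and 3 as many. Of the 10 Foxp3 regions called in both WT libraries 8 overlapped 1 of the 12 (80%, 95% exact binomial interval 44.4 to 97.5, against 86.3% across the series). For p300 this was 8 of 13 (61.5%, interval 31.6 to 86.1, against 80.7%) and for NFAT1 7 of 14 (50%, interval 23 to 77, against 73.1%). The intervals cover counting error only and treat regions of 1 locus as independent. Each of these 3 intervals holds the share of the whole series, but with 10 to 14 regions they are too wide to show likeness to it. Of the 45 H3K27ac regions called in both WT libraries 10 overlapped one (22.2%, interval 11.2 to 37.1, against 49.6%). These 45 are not a part of the 78 regions joined over 4 libraries. They come from another set, with 82 regions that had a peak in at least 1 WT library. Counted over regions with a peak in at least 1 library, the NFAT1 share was 77.8% against 88.3%.

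The protein-coding genes nearest to Bach2 carried little of the mark. On its lower side the 3 nearest are Map3k7, the gene of the kinase TAK1, at 214.9 kb, then Epha7 and Manea. Epha7 and Manea lie far off, at 3270.9 and 5891.5 kb. On the upper side they are Gja10 at 14.8 kb, Casp8ap2 at 29.4 kb and Mdn1 at 71.0 kb. Epha7 and Gja10 had no H3K27ac peak in any library. The other 4 had between 1.5 kb (Manea, IkE5 library 1) and 4.5 kb (Casp8ap2, IkE5 library 1), and none had a WT only or IkE5 only H3K27ac region. Casp8ap2, which encodes a protein of histone gene expression, had 3.7 and 4.0 kb in WT and 4.5 and 4.4 kb in IkE5, so it was not lower in IkE5. Map3k7 (2.4 and 2.4 against 2.0 and 2.3 kb), Manea (3.0 and 2.1 against 1.5 and 1.8 kb) and Mdn1 (4.0 and 3.7 against 2.8 and 2.9 kb) had both IkE5 libraries below both WT libraries. The same was true of 19.1% of genes with any H3K27ac peak. After scaling to list length Manea and Mdn1 kept this order and Map3k7 did not.

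Among 21887 genes 2 had a longer mean H3K27ac coverage in WT than Bach2, 1 had a larger drop from WT to IkE5 than its 71.9 kb, and 1 had more than its 15 WT only regions. These places are a description, since the gene was chosen for this contrast. The 5 genes with the most similar covered lengths over all 18 lists (smallest Euclidean distance of log2 values) were Rad51b at 1.67, Arhgef3 at 1.87, Tox at 2.06, Foxp1 at 2.24 and Arid5b at 2.52. The measure uses the level of every target as well as its differences between libraries.

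Of these 5, only Foxp1 had both IkE5 libraries below both WT libraries in the lengths as deposited, as in 19.1% of genes with any H3K27ac peak, and after scaling to list length Foxp1 and Tox did. It had 243.7 and 184.8 kb of H3K27ac in WT and 109.4 and 111.3 kb in IkE5, with 22 WT only regions and no IkE5 only region, and scaled 205.9 and 227.8 kb against 101.0 and 120.7 kb. Rad51b, a recombination gene, had 144.4 and 77.9 kb in WT and 117.3 and 105.3 kb in IkE5, with 5 regions of each class. Tox, a factor of thymocyte selection and exhausted T cells, had 131.0 and 70.9 kb in WT and 80.7 and 63.6 kb in IkE5, and scaled 110.7 and 87.3 kb against 74.5 and 69.0 kb.

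**Figure D5:**
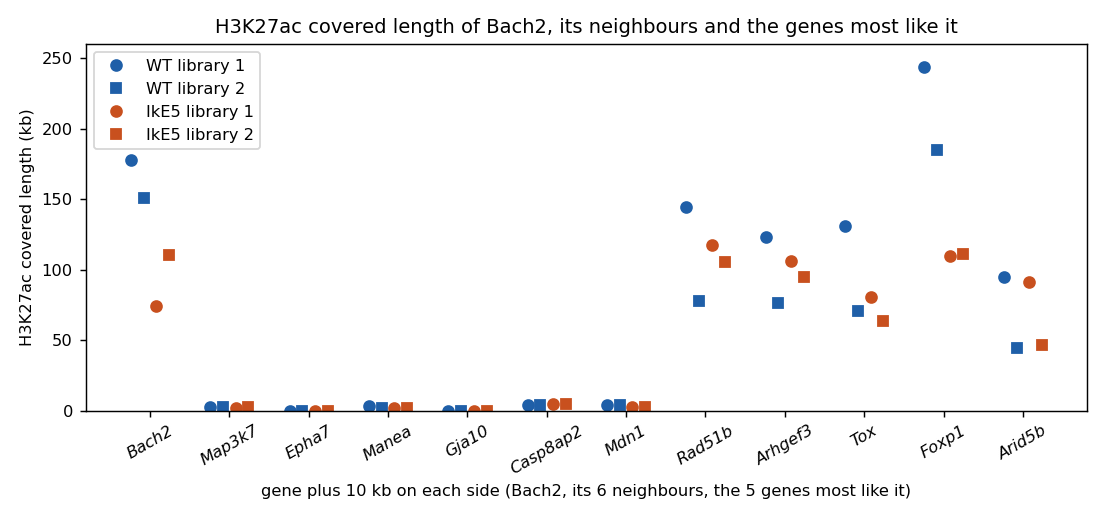
H3K27ac covered length (kb, y axis) in each of the 4 libraries for Bach2, its 6 neighbours and the 5 genes most like it (x axis, gene plus 10 kb on each side); blue is WT and orange IkE5. Bach2 (177.8 and 150.6 against 74.2 and 110.4 kb) and Foxp1 (243.7 and 184.8 against 109.4 and 111.3 kb) have both IkE5 libraries below both WT libraries in these unscaled lengths, as Tox does only after scaling. The 6 neighbours stay at 4.5 kb or less, and of them Map3k7, Manea and Mdn1 also have both IkE5 libraries below both WT libraries.

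Among the partners and relatives of BACH2, only Bach1 had less H3K27ac in both IkE5 libraries than in either WT library. Bach1, the closest relative of Bach2, had 13.1 and 8.8 kb in WT and 7.5 and 6.2 kb in IkE5, with 1 WT only region. After scaling it had 11.1 and 10.8 kb against 6.9 and 6.7 kb, and 19.1% of genes with any H3K27ac peak were lower in both IkE5 libraries as deposited. Across the series 13.3% of genes with any H3K27ac region held a WT only region and 11.2% an IkE5 only region, and 1 of 4 genes is too few to set against these shares. The small MAF genes Mafk, Mafg and Maff had neither class, and Mafg was level at 10.0 and 10.3 kb in WT and 10.3 and 10.1 kb in IkE5. Maff was higher in both IkE5 libraries as deposited (4.5 and 4.0 kb against 5.1 and 5.6 kb) but not after scaling.

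AP-1 genes and Irf4, whose products use sites that BACH2 also binds, had 1 of 10 members with a WT only H3K27ac region, Fos. None had an IkE5 only region. Across the series the shares were 13.3% and 11.2% of genes with any H3K27ac region, and 10 genes are too few to set against them. Fos, which joins JUN proteins in AP-1, had 9.5 and 6.5 kb in WT and 6.2 and 6.3 kb in IkE5. Both IkE5 libraries were thus below both WT libraries, as in 19.1% of genes with any H3K27ac peak. Batf, a factor of effector Treg cells, had 29.9 and 8.4 kb in WT and 30.5 and 16.8 kb in IkE5, so its libraries differed within each genotype more than between them. NFAT1 regions of WT only were at 4 of the 10 (Junb, Fos, Batf and Irf4), where 31.1% of genes with any NFAT1 region held one, and an IkE5 only NFAT1 region was at 1 (Batf), against 4.61%.

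Genes that BACH2 is known to restrain had IkE5 only H3K27ac regions at 4 of 12 (Il4, Il13, Ifng and Ccr4), against 11.2% of genes, and WT only regions at 2 (Rora and Il1rl1), against 13.3%. Il4 and Il13 are neighbouring T helper 2 cytokine genes whose windows overlap, so they are not independent members. The list was chosen with earlier results of these data known, so its counts are a description. Ifng, the gene of interferon gamma, had 3.6 and 0.0 kb in WT and 7.4 and 4.0 kb in IkE5. Ccr4, a homing receptor for skin, had 11.5 and 3.9 kb in WT and 12.2 and 11.5 kb in IkE5, and WT library 1 reached the level of IkE5 library 2. Klrg1, a receptor of terminally differentiated Treg cells, had neither class of region and 13.3 and 2.2 kb in WT and 23.9 and 20.6 kb in IkE5.

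The acetyltransferase p300 had IkE5 only regions at 7 of these 12 genes (Prdm1, Rora, Il4, Il13, Ifng, Il1rl1 and Ccr4), against 8.56% of genes with any p300 region, and WT only regions at 1 (Rora), against 11.3%. As the windows of Il4 and Il13 overlap, the 1 p300 region counted at each may be the same. Rora held 2 IkE5 only and 3 WT only p300 regions. The shares are over genes of any length, and a gene with more regions has more room for either class. Prdm1, which encodes the effector factor BLIMP1 and is a direct target of BACH2, had 21.1 and 6.0 kb of H3K27ac in WT and 27.5 and 17 kb in IkE5. Summed over the 12 genes the mark covered 208.6 and 94.1 kb in WT and 208.2 and 163.1 kb in IkE5, so the groups overlapped, and WT library 2 was the low one. Foxp3 had WT only regions at 2 of the 12 (Prdm1 and Klrg1) and IkE5 only regions at 2 (Rora and Il1rl1), against 6.31% and 7.25% of genes with any Foxp3 region. Rora, a nuclear receptor gene, had 82.9 and 45.3 kb in WT and 43.8 and 46.3 kb in IkE5, with 6 WT only regions.

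Genes of resting T cells, the state in which Bach2 is most expressed, had WT only H3K27ac regions at 9 of 13. IkE5 only regions were at 2 of 13 (Il7r and Id3, which also held a WT only region). Across the series the shares were 13.3% and 11.2% of genes with any H3K27ac region. Those shares are over genes of any length, and a gene with more regions has more room for either class. This list too was chosen with earlier results of these data known, so its counts are a description. The summed coverage of the 13 genes was 687.2 and 605.4 kb in WT and 448.2 and 459.2 kb in IkE5, of which Foxp1 alone made up the largest part. Lef1 had 60.0 and 64.4 kb in WT and 16.3 and 29.4 kb in IkE5, and Satb1, a chromatin organiser, 46.4 and 52.6 kb in WT and 30.2 and 33.9 kb in IkE5. In both genes, as at Bach2, both IkE5 libraries lay below both WT libraries, as in 19.1% of genes with any H3K27ac peak.

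Not every member of the list showed this. Bcl11b, a factor of T cell identity, had 85.7 and 76.9 kb in WT and 82.0 and 75.0 kb in IkE5. Of the bases acetylated in both WT libraries Bcl11b kept 87.6% in both IkE5 libraries and Ets1 89.8%, against 66.7% at Satb1, 61.8% at Foxo1 and 45.2% at Bach2. NFAT1 regions of WT only were at 10 of the 13 genes and IkE5 only ones at 3, against 31.1% and 4.61% of genes with any NFAT1 region. These shares too are over genes of any length, and long genes such as Foxp1 have more room for either class. Of all NFAT1 regions 19.4% were WT only and 3.72% IkE5 only. At Bach2 itself, the NFAT1 count was 1 and 0.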

How the data were processed

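Peak lists of 18 ChIP-seq libraries were analysed, and 4 input samples were not analysed here. The authors deposited 1 list per library with chromosome, start and end only, so no score, read count or depth is known. Per the submitters' processing notes the tools were FastQC, Bowtie2, MACS2, bedtools and HOMER on mm10. Which of these tools called the deposited peaks, the threshold and the use of the inputs are not given in the sources used here, and a stricter threshold would lower both peak number and covered length. Factor peaks are 500 bp wide, so their width carries no signal.

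Groups were taken from the genotype labels. For each target, peaks from its 4 libraries were merged into regions at 1 bp of overlap or more. Covered length was the number of bases in peaks, within a gene and 10 kb on each side, for 21887 protein-coding genes of RefSeq GRCm38.p6. H3K27ac lengths were scaled to the library total, genes averaging 1000 bp or more were kept, and log2(length + 1000 bp) was fitted with limma 3.58.1 in R 4.3.3 (trended prior, Benjamini-Hochberg at 0.05, 4 libraries). Fold changes on this scale understate changes of short coverage. Peak numbers were compared by 2-sided exact permutation tests. The limma step and the joining of regions were tested on simulated data.

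The members and gene lists were chosen with earlier results of these data known. Genes named are Bach2, its 3 nearest protein-coding genes on each side, the listed partners, AP-1, restrained, resting T cell and marker genes, and the 5 genes nearest in log2 covered length (+ 500 bp) over 18 lists. Regions named are factor sites that differ by genotype or lie nearest the gene start, the 5 widest WT only H3K27ac regions, every IkE5 only one and the widest found in all 4 libraries. The factor sites in all 14 lists and those with 4 targets outside the first 200 kb, the 24.1 kb region and the region before the internal start were named after their values were seen. Alternatives were other scalings, pseudocounts, filters, flanks, joining rules and 1 kb bins, a replicate block, and leaving out each library.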

Additional observations from a re-analysis of the deposited data

How the results depend on the processing

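The lower H3K27ac coverage of Bach2 in IkE5 kept its direction under every scaling, pseudocount, filter, flank and left-out library tried, with log2 differences from -1.27 to -0.48 over the left-out libraries; the smallest was without IkE5 library 1. The number of genes called by limma, 143, was 0 without scaling (1156 at an unadjusted p under 0.05), 22 with the median ratio, 37 with a 100 bp pseudocount, 78 without the filter, and 126 to 631 without 1 library. Where a group then has 1 library, it is assumed to vary like the others.

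Region counts moved with the joining rule. The 15 WT only H3K27ac regions became 3 when peaks up to 1000 bp apart were joined and 45 in 1000 bp bins, and the IkE5 only count of 1 became 0 when joined and 2 with 50 kb flanks. In bins the WT only counts of Foxp3, p300 and NFAT1 became 2 each. Without flanks those of p300 and NFAT1 became 0, and with 50 kb flanks NFAT1 had 2 WT only and Foxp3 1 IkE5 only region. Without 1 library, WT only counts ranged from 19 to 44 (H3K27ac), 1 to 6 (Foxp3), 1 to 4 (p300) and 1 to 6 (NFAT1), and IkE5 only counts from 1 to 2, 0 to 3, 0 to 2 and 0 to 1. A rule with fewer libraries to satisfy gives more regions by construction. The NFAT1 peak difference of -4.5 turned to 3.19 when scaled to list length, and the NFAT1 share with Ikaros was 77.8% for regions in at least 1 library, against 50%. For the other changes the cause was not tested.

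Nothing in the labels says that a library number marks a shared preparation; deviations of same-numbered H3K27ac libraries correlated at r = 0.46 over 12714 genes, which are not independent replicates. With the number as a block limma called 1250 genes, with a Bach2 difference of -0.88. Within the pair numbered 1 and the pair numbered 2, WT only counts were 55 and 32 (H3K27ac), 6 and 3 (Foxp3), 5 and 3 (p300) and 4 and 6 (NFAT1), and IkE5 only counts 2 and 6, 3 and 1, 2 and 3 and, for NFAT1 in the pair numbered 1, 1. The lists carry no reads, so the depth behind these values is unknown, and a place without a peak is one not called.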
